A study of Mus musculus with 10 samples.

Results

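The 36 genes described here are expressed by microglia and by the macrophages that lie along the vessels and membranes of the brain. They were chosen by symbol as known genes of resting, phagocytic and perivascular macrophages, with earlier results of these data known, and all 36 were found among the 18444 genes of a table of whole-brain transcript counts. They comprise 10 surface receptors of resting microglia, 5 immune adapters and their receptors, 4 complement genes, 5 genes of the lysosome and the phagocyte oxidase, 5 proteins shared by many leukocytes, 4 transcription factors and 3 genes of perivascular macrophages. All 36 had a mean of at least 10 normalised read counts over the libraries, the minimum for testing. A normalised read count is the estimated number of reads of a gene divided by the size factor of its library.

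Microglia are the resident macrophages of the brain. They enter it from the yolk sac before birth, depend on signals through the receptor CSF1R to survive, and in the first days after birth multiply, clear dying cells and prune synapses. Perivascular and meningeal macrophages share their origin and many of their genes, but stay at the borders of the tissue and carry scavenger receptors such as the mannose receptor.

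Poly-A RNA came from the whole brain of each mouse, and each gave 1 library. The mice were C57BL/6N males on postnatal day 3 (P3). The HT group held 5 mice heterozygous for *Arid1b*, with a CRISPR/Cas9 edit of exon 5 that truncates the protein from 1 allele, and the WT group held 5 wild-type mice. *Arid1b* encodes a DNA-binding subunit of the BAF chromatin remodelling complex. All mice came from HT males crossed with WT females, and the edit was inherited through the germline and so not limited to microglia.

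The libraries rested on an estimated 25.1 M to 31.3 M reads (M, mega), and 1 read was worth 0.912 to 1.131 normalised read counts, so genes with few counts carry a large counting error. *Arid1b* had 2101 ± 343 normalised read counts in HT and 3335 ± 203 in WT (mean ± SD, n = 5 each), and the groups did not overlap (exact permutation p = 0.00794, the smallest that 5 against 5 libraries can give). Its log2 fold change was -0.68 ± 0.11 (SE) with a limma adjusted p of 0.390 over all genes, and -0.57 with a limma adjusted p of 2.52e-04 without HT 4. The library HT 4 stood apart, with a median absolute log2 deviation from the gene means of 0.209, while the other 9 libraries had 0.077 to 0.108. Main values are therefore also given without HT 4. Defining markers of microglia and border macrophages were looked up, which shows that their transcripts were present but cannot check the tissue label. The microglial markers *Cx3cr1*, *Csf1r*, *P2ry12*, *Tmem119*, *Sall1* and *C1qa* and the border macrophage markers *Mrc1*, *Pf4*, *Cd163*, *Lyve1* and *F13a1* were all above 0 in every library.

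Levels differed widely between the 36 genes. Per kilobase of the longest coding transcript, the legumain gene *Lgmn*, which encodes a lysosomal protease also made by other brain cells, stood highest with 926 normalised read counts. The complement genes *C1qb* (196.7), *C1qc* (189.4) and *C1qa* (177.3) came next on this scale, and their library values overlapped. The adapter gene *Tyrobp* followed with 144 per kilobase, and *Sall1*, a transcription factor that is also made by neural progenitors, with 130 per kilobase. The lowest levels per kilobase were those of *Lilrb4a* (8.45), *Ptprc* (8.66) and *Selplg* (11.7). In normalised read counts the lowest means were 11.7 for *Lilrb4a*, 21.8 for *Selplg* and 26.1 for *Pf4*.

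The comparison of HT with WT asked whether the transcripts of these cells differ when 1 *Arid1b* allele is edited. The HT mean was lower for 30 of the 36 genes and higher for 6 on the log2 scale, with *Lgmn* (-0.0010) and *Fcgr3* (-0.0028) counted among the lower although level. The share lower in HT was 83.3%, against 53.6% of all 17020 genes tested, and the median log2 fold change was -0.16, against -0.0074 over all genes. No single gene of the 36 passed the test: 0 of 36 had a limma adjusted p under 0.05, and so did 0.0% of all genes. At an unadjusted limma p under 0.05, 1 of the 36 genes (*Lilrb4a*) was called, against 3.41% of all genes (1.93% called and lower in HT). That gene passed the minimum mean only through its WT libraries. By the exact permutation test 1 of 36 had a p under 0.05, against 3.9% of all genes (2.19% lower in HT). A log2 fold change below -0.2 was found for 14 of the 36 genes, against 8.67% of all genes. The 36 varied more between libraries than all genes (median SD 0.359 against 0.158 on the log2 scale), so spread alone takes more of them past such a cut. They also moved together across libraries, as described below, so 30 and 14 do not count separate observations. In whole-brain RNA, fewer cells of a type and less RNA per cell cannot be told apart.

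The size of the median rested on single libraries more than its sign did. It was -0.09 without HT 3, -0.10 without WT 2, -0.10 without WT 4, -0.25 without HT 4 and -0.26 without WT 5. The number of genes lower in HT lay between 24 (without WT 2) and 32 (without WT 5). Without HT 4, the unadjusted limma p was under 0.05 for 6 of the 36 against 8.4% of all genes, and all 6 were lower in HT: *Lilrb4a*, *C1qa*, *Lyz2*, *Cd68*, *Trem2* and *Ctss*. Their limma adjusted p values then ranged from 0.446 to 0.573. Without WT 5 there were also 6, against 4.14% of all genes, namely *Cx3cr1*, *Gpr34*, *Lilrb4a*, *Itgam*, *Ctss* and *Aif1*, again all lower. With libraries weighted by their spread there were 10, against 7.52%. The plot of fold changes shows these shifts gene by gene.

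**Figure D1:**
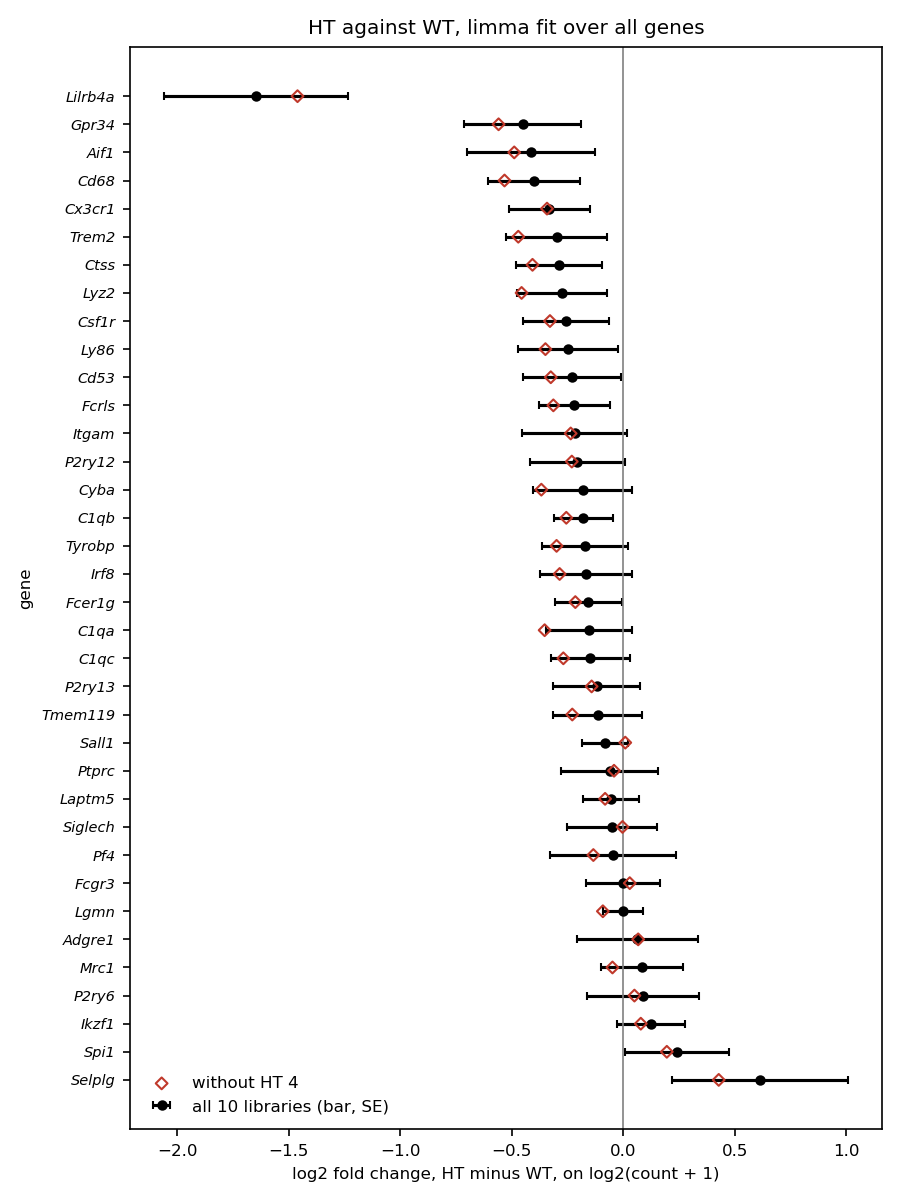
Log2 fold change of HT against WT on log2(count + 1) (x axis) for each of the 36 genes (y axis, sorted), from the limma fit over all genes. Filled circles with bars give the value and SE with all 10 libraries, open diamonds the value without HT 4; *Lilrb4a* lies at -1.65 and *Selplg* at 0.61, and most other genes lie between -0.45 and 0.24 with bars that reach or approach 0.

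Among the receptors of resting microglia, 8 of 10 had a lower HT mean, with a median log2 fold change of -0.16. *Cx3cr1*, the receptor for the neuronal chemokine fractalkine (ENSMUSG00000052336, GRCm38 chromosome 9, 119901616 to 120069879, minus strand), had 307, 263, 209, 274 and 290.0 normalised read counts in HT 1 to HT 5 and 281, 455, 284, 472 and 249 in WT 1 to WT 5. WT 2 and WT 4 lay above every HT library, and the other 3 WT libraries lay within the HT range. The means were 269 ± 37.1 in HT against 348 ± 106 in WT (mean ± SD, n = 5 each). The log2 fold change was -0.33 ± 0.18 (SE), with a 95% interval from -0.73 to 0.06, a limma p of 0.0900 (adjusted 1.00) and an exact permutation p of 0.222.

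*Csf1r*, the growth factor receptor on which microglia depend, had 531, 461, 402, 579 and 426 normalised read counts in the HT libraries and 468, 915, 508, 677 and 403 in the WT libraries, in order of replicate number. *P2ry12*, the purinergic receptor that guides microglial processes to injury, had 173, 126, 111, 152 and 158 in HT and 109, 212, 149, 256 and 135 in WT. For both genes WT 2 and WT 4 were again above the whole HT range while the remaining WT libraries did not exceed it. The log2 fold changes were -0.26 ± 0.19 for *Csf1r* and -0.21 ± 0.21 for *P2ry12* (SE).

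*Gpr34*, a receptor for lysophosphatidylserine (ENSMUSG00000040229, GRCm38 chromosome X, 13632089 to 13640858, plus strand), had 49.8, 48.9, 41.0, 59.7 and 27.7 normalised read counts in HT and 60.0, 75.1, 56.1, 92.1 and 35.0 in WT. WT 1, WT 2 and WT 4 were above all HT libraries, WT 1 only just, and WT 3 and WT 5 lay within the HT range. Its log2 fold change was -0.45 ± 0.26 (SE, n = 5 each, limma p 0.108, adjusted 1.00), and the exact permutation p was 0.167. *Selplg*, the P-selectin ligand (ENSMUSG00000048163, GRCm38 chromosome 5, 113818536 to 113832644, minus strand), ran the other way with 17.0, 17.1, 46.1, 40.5 and 14.2 in HT and 21.6, 23.7, 15.1, 15.4 and 6.91 in WT. Its HT mean of 27.0 ± 15.1 against 16.5 ± 6.56 in WT (mean ± SD, n = 5 each) rested on HT 3 and HT 4, since the other HT libraries lay within the WT range. The log2 fold change was 0.61 ± 0.40 (SE, limma p 0.146, adjusted 1.00), and the exact permutation p was 0.222.

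The other 5 receptors had log2 fold changes between -0.22 and 0.09. *Fcrls*, an Fc receptor-like protein of mouse microglia, had a log2 fold change of -0.22 ± 0.16 (SE), and the purinergic receptors *P2ry13* and *P2ry6* had -0.12 ± 0.19 and 0.09 ± 0.25. *Tmem119*, a membrane protein used to tell microglia from other macrophages, had 82.3 ± 23.4 normalised read counts in HT and 87.4 ± 15.9 in WT (mean ± SD, n = 5 each). *Siglech*, a sialic acid receptor, had 45.7 ± 9.71 and 47.4 ± 9.61. For each of these genes the 95% interval of the log2 fold change covered 0 and reached beyond -0.4 on the lower side. *Cx3cr1*, *Csf1r*, *P2ry12*, *P2ry13*, *P2ry6* and *Gpr34* overlap annotated genes on the opposite strand. The strand setting of the counting is not given in the sources used here. *Cx3cr1* also overlaps *Csrnp1*, *Gorasp1* and *Xirp1*, which are annotated on its own strand.

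**Figure D2:**
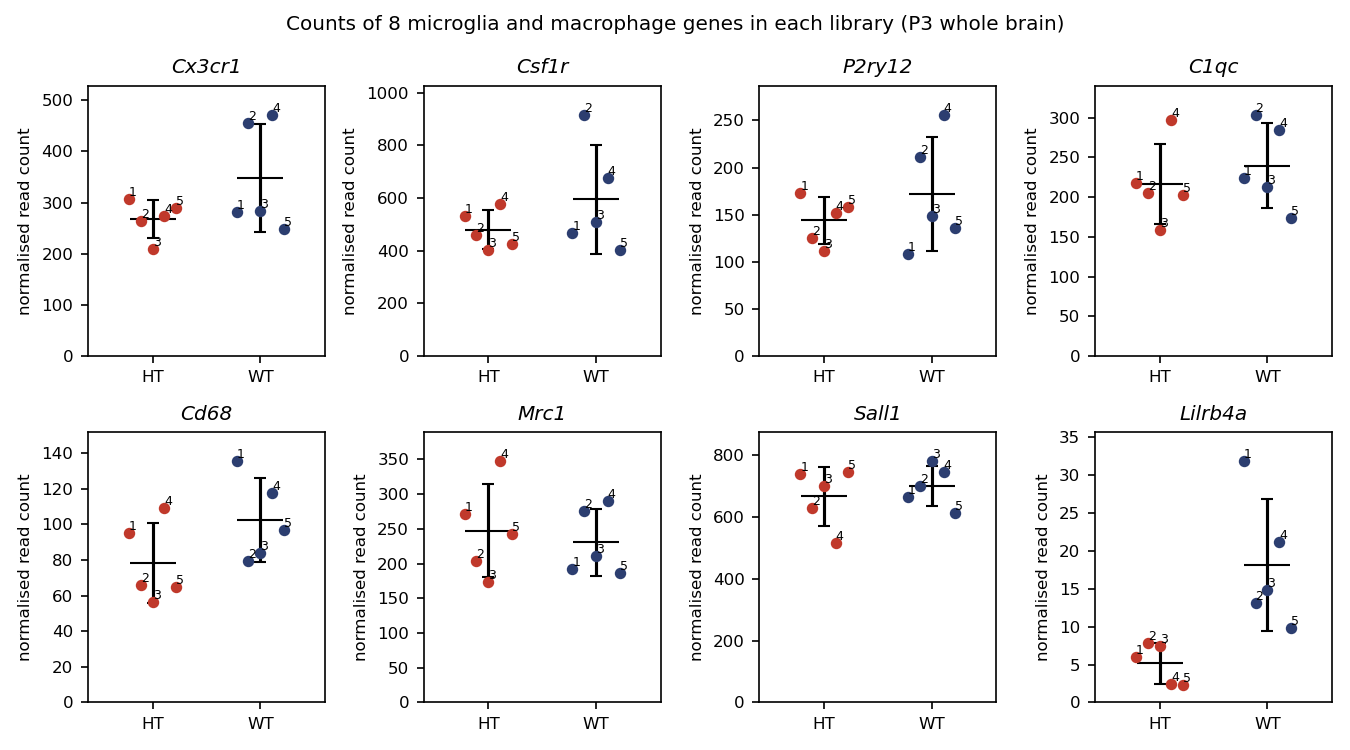
Normalised read counts (y axes, from 0) of 8 of the 36 genes in the 5 HT (red) and 5 WT (blue) libraries, with replicate numbers beside the points, the group mean as a line and the SD as a bar. WT 2 and WT 4 are the highest WT libraries for *Cx3cr1*, *Csf1r*, *P2ry12*, *C1qc* and *Mrc1*, HT 4 is the highest HT library for *Csf1r*, *C1qc*, *Cd68* and *Mrc1* and the lowest for *Sall1*, and the groups are apart for *Lilrb4a*.

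Of the 5 immune adapters and their receptors, 4 had a lower HT mean and *Fcgr3* was level (-0.0028 on the log2 scale), with a median of -0.17. The group includes *Tyrobp* (DAP12) and *Fcer1g*, which carry activating ITAM motifs, and the lipid receptor *Trem2*, which signals through DAP12. *Tyrobp* had 80.9 ± 19.8 normalised read counts in HT and 91.0 ± 19.9 in WT, and *Fcer1g* had 78.0 ± 9.91 and 87.7 ± 14.9 (mean ± SD, n = 5 each). *Trem2* had a log2 fold change of -0.30 ± 0.23 (SE), which became -0.47 when HT 4, its highest HT library at 89.2 counts, was left out. The IgG receptor gene *Fcgr3* had 91.5 ± 20.8 in HT and 90.8 ± 14.4 in WT (mean ± SD, n = 5 each), its sign turned in 6 of 19 alternatives, and 13.4% of the 31-base words of its transcripts occur in other genes, mostly *Fcgr2b*.

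*Lilrb4a*, an inhibitory leukocyte immunoglobulin-like receptor (ENSMUSG00000112148, GRCm38 chromosome 10, 51490956 to 51496611, plus strand), was the only gene of the 36 whose groups did not overlap, against 0.629% of all genes tested (0.347% without overlap and lower in HT). It had 6.06, 7.88, 7.39, 2.39 and 2.27 normalised read counts in HT and 31.8, 13.2, 14.8, 21.2 and 9.78 in WT. The highest HT library (7.88) and the lowest WT library (9.78) were close together. The means were 5.20 ± 2.70 and 18.1 ± 8.69 (mean ± SD, n = 5 each), and the log2 fold change was -1.65 ± 0.41 (SE). The unadjusted limma p was 0.00156, the limma adjusted p was 1.00 (0.446 to 1.00 over the alternatives) and exact permutation gave 0.00794, its lower limit (adjusted 1.00). The gene passed the minimum mean of 10 only through its WT libraries. Of its 31-base words, 55.7% occur in another gene, most in the neighbouring *Lilr4b*, so that the share of reads given to each copy is uncertain.

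The complement genes were lower in HT in 4 of 4 cases, with a median of -0.17. *C1qa*, *C1qb* and *C1qc* encode the chains of C1q, which starts the classical complement cascade and tags synapses for removal, and lie side by side on chromosome 4. *C1qb* (ENSMUSG00000036905, GRCm38 chromosome 4, 136880129 to 136886187, minus strand) had 210, 184, 183, 246 and 177 normalised read counts in HT and 216, 293, 192, 246 and 193 in WT. *C1qc* (ENSMUSG00000036896, GRCm38 chromosome 4, 136889804 to 136893065, minus strand) had 217, 205, 159, 297 and 203 in HT and 224, 304, 213, 284 and 173 in WT. HT 4, WT 2 and WT 4 were the 3 highest libraries for both genes. The log2 fold changes were -0.18 ± 0.13 (95% interval -0.47 to 0.11, limma p 0.204, adjusted 1.00) for *C1qb* and -0.15 ± 0.18 (-0.53 to 0.23, limma p 0.418, adjusted 1.00) for *C1qc*.

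*C1qa* had 149, 165, 124, 296 and 158 normalised read counts in HT and 169, 214, 193, 209 and 168 in WT. Its HT 4 value stood far above the other HT libraries, and without HT 4 the log2 fold change moved from -0.15 to -0.35, with a limma adjusted p of 0.464. *Itgam*, a chain of complement receptor CR3, had 63.2 ± 12.7 in HT against 75.6 ± 23.1 in WT (mean ± SD, n = 5 each). Of its 31-base words, 68.1% also belong to the overlapping annotated gene *Gm49368*.

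Of the 5 genes of the lysosome and the oxidase, 4 had a lower HT mean and *Lgmn* was level, with a median of -0.18. *Cd68*, a lysosomal membrane protein used as a marker of phagocytic activity (ENSMUSG00000018774, GRCm38 chromosome 11, 69664213 to 69666153, minus strand), had 95.0, 65.7, 56.7, 109 and 65.0 normalised read counts in HT and 135, 79.4, 84.0, 118 and 97.0 in WT. HT 1 and HT 4 lay among the WT libraries, while HT 2, HT 3 and HT 5 lay below all of them. The log2 fold change was -0.40 ± 0.21 (SE, n = 5 each; 95% interval -0.85 to 0.04, limma p 0.0728, adjusted 1.00), and the exact permutation p was 0.119. Without HT 4 it was -0.53, with a limma adjusted p of 0.478.

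*Ctss*, the cathepsin of antigen-presenting cells, had 155, 134, 115, 211 and 154 normalised read counts in HT and 166, 248, 174, 232 and 128 in WT, and its log2 fold change was -0.29 ± 0.19 (SE). *Lgmn* (ENSMUSG00000021190, GRCm38 chromosome 12, 102394084 to 102439813, minus strand) had 1733, 1727, 1690.0, 2358 and 1730.0 in HT and 1801, 2072, 1681, 1846 and 1789 in WT. Apart from HT 4 and WT 2 its libraries were nearly level, the log2 fold change was -0.0010 ± 0.09 (SE, n = 5 each; 95% interval -0.20 to 0.20), and the limma p was 0.991 (adjusted 1.00). Its mean count was 1848 in HT and 1838 in WT, and its sign turned in 6 of 20 alternatives. *Laptm5*, a lysosomal protein of blood-derived cells, had -0.05 ± 0.13, and *Cyba*, the membrane subunit of the superoxide-producing oxidase, had -0.18 ± 0.22 on the log2 scale (SE).

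Of the 5 proteins shared by many leukocytes, 4 were lower in HT, with a median of -0.23. *Aif1* (IBA1), the actin-binding protein by which microglia are commonly stained, had 31.8, 16.6, 24.6, 36.2 and 45.4 normalised read counts in HT and 46.8, 40.5, 46.2, 48.1 and 22.3 in WT. WT 5 was the only WT library below 40 and HT 5 the only HT library above it. Its log2 fold change was -0.42 ± 0.29 (SE, n = 5 each). The tetraspanin *Cd53* and the *Ly86* (MD-1), a partner of a Toll-like receptor homologue, had -0.23 ± 0.22 and -0.25 ± 0.22. *Ptprc* (CD45) had -0.06 ± 0.22, and *Adgre1* (F4/80) was slightly higher in HT with 0.06 ± 0.27 (SE).

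The transcription factors were split, with 2 lower and 2 higher in HT and a median of 0.02. *Spi1*, which encodes PU.1, the factor required for the myeloid lineage, had 40.9 ± 6.42 normalised read counts in HT and 35.7 ± 12.3 in WT (mean ± SD, n = 5 each). *Irf8*, its partner in microglia, had 50.6 ± 14.7 and 55.7 ± 8.42, and *Ikzf1* had 153 ± 28.6 and 140 ± 23.8. *Sall1* had 667 ± 96.4 in HT and 701 ± 65.5 in WT, and its lowest value, 516, was in HT 4, the library in which 28 of the 36 genes were above their own mean.

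The 3 perivascular macrophage genes had a median of -0.05, with 2 lower in HT. *Mrc1*, the mannose receptor, had 271, 204, 173, 347 and 242 normalised read counts in HT and 192, 275, 211, 289 and 187 in WT, a log2 fold change of 0.08 ± 0.18 (SE, n = 5 each), and it was -0.05 without HT 4. *Lyz2*, a lysozyme that shares 32.8% of its 31-base words with other genes, mostly *Lyz1*, had -0.28 ± 0.20. *Pf4* (ENSMUSG00000029373, GRCm38 chromosome 5, 90772435 to 90773383, plus strand), a platelet chemokine also made by border macrophages, had 17.0, 29.1, 17.1, 31.6 and 33.2 in HT and 20.4, 37.0, 22.8, 34.8 and 17.6 in WT. The *Pf4* groups covered the same range, with a log2 fold change of -0.05 ± 0.28 (SE, n = 5 each), a limma p of 0.869 (adjusted 1.00) and an exact permutation p of 0.905.

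The median SD of the 36 genes over the 10 libraries was 0.359 on the log2 scale, against 0.158 for all genes tested. To describe the libraries, a score was taken as the mean deviation of the 36 genes from their own means on the log2 scale. It was highest in WT 2 (0.36) and WT 4 (0.34), then 0.19 in HT 4, 0.05 in WT 1, -0.02 in WT 3, -0.04 in HT 1, -0.16 in HT 2, -0.16 in HT 5 and -0.24 in HT 3, and lowest in WT 5 (-0.32). The highest pair and the lowest library were thus all WT, and the HT libraries lay between them.

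Single genes followed the score. In WT 2, 35 of the 36 genes were above their own mean, in WT 4 31 and in HT 4 28, against 7 in HT 3 and 3 in WT 5. WT 2 and WT 4 were each the highest library for 10 of the 36 genes and HT 4 for 8. HT 3 was the lowest library for 11 genes, and HT 5 and WT 5 were each the lowest for 7. The map of deviations shows these libraries as mostly red or mostly blue columns.

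**Figure D3:**
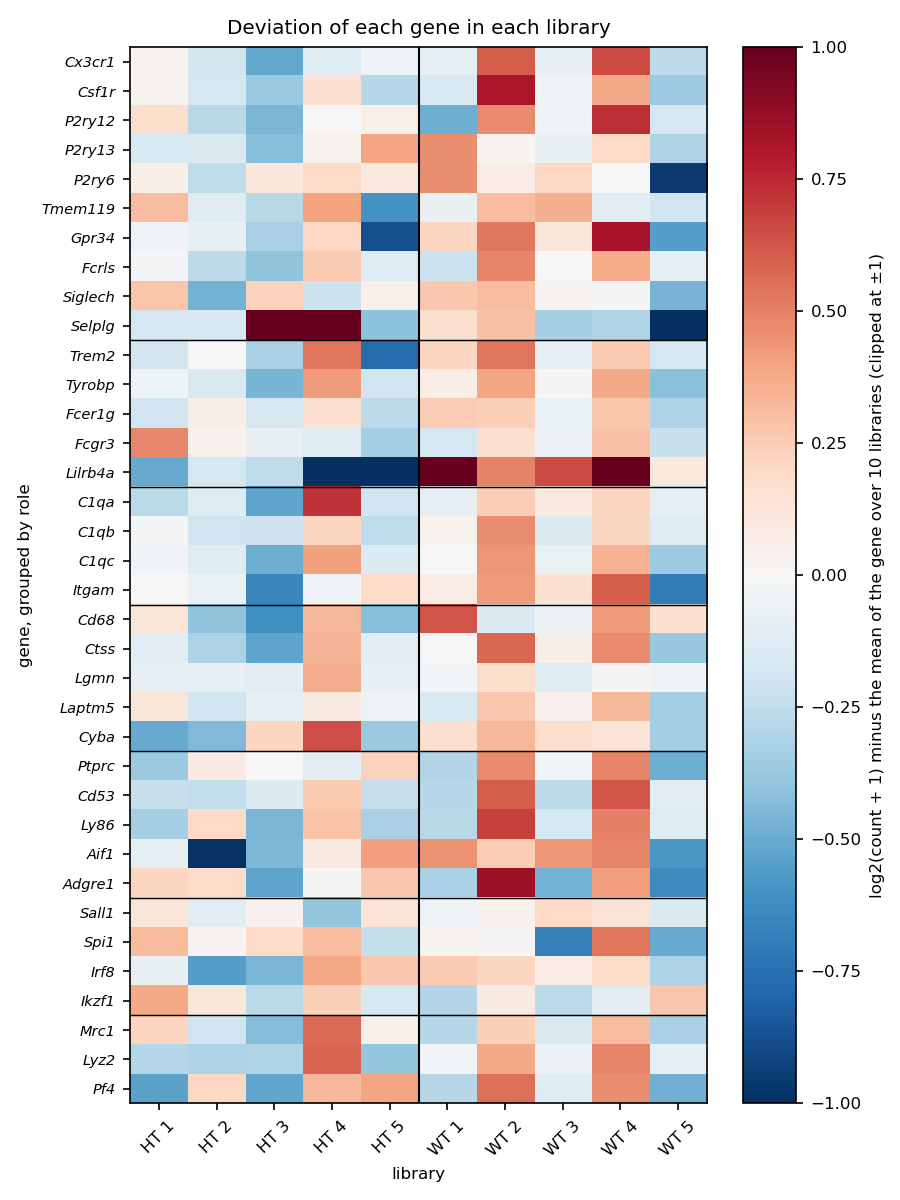
Deviation of log2(count + 1) from the mean of the gene over 10 libraries (colour, red above and blue below, clipped at ±1) for the 36 genes (rows, with lines between roles) in the 5 HT and 5 WT libraries (columns). WT 2 has 35 of 36 genes above their mean and WT 5 has 3.

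Co-variation was measured as Pearson r of log2(count + 1) over the 10 libraries, which share depth and dissection between genes. Over the 630 pairs of the 36 genes the median r was 0.443, against -0.001 over all pairs of genes tested. An r above 0.5, a level chosen after the values were seen, was found for 275 pairs (43.65%, against 12.98% of all pairs), and 59 pairs were below 0. *Tyrobp* was closest to *C1qc* (r = 0.989), *Ctss* to *C1qc* (0.964), *Fcrls* to *Ctss* (0.937) and *Csf1r* to *C1qb* (0.927). With the genotype means taken out, 284 pairs were above 0.5 and the median was 0.454, and the share over all pairs was not taken in that setting.

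The roles differed in how closely their genes moved together. Within the complement genes the median r was 0.740, within the leukocyte-wide proteins 0.634 and within the perivascular genes 0.627. It was 0.459 within the lysosome and oxidase genes, 0.372 within the adapters and their receptors and 0.275 within the receptors of resting microglia. The transcription factors had a median of -0.067 among themselves. The mean r with the other 35 genes was highest for *Ctss* (0.631), *Tyrobp* (0.628) and *C1qc* (0.625) and lowest for *Sall1* (-0.032), *Ikzf1* (0.024), *Lilrb4a* (0.123) and *Selplg* (0.155). For the perivascular gene *Mrc1* the mean r was 0.508, and its best partner was *C1qc* (r = 0.854).

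*Cx3cr1* was used as the index gene, and its r with each of the other 17019 genes was computed. Of the 35 other genes of the 36, 21 had an r above 0.5, against 6.67% of all genes, and the median was 0.600, against 0.006. By 100000 permutations 15 of the 35 had an unadjusted p under 0.05, against 4.31% of all genes, and 0 of 35 (and 0 of all genes) passed after Benjamini-Hochberg adjustment over 17019 genes. *P2ry12* had r = 0.904 (permutation p = 0.0006, adjusted 0.699) and rho = 0.842 (p = 0.00377, adjusted 1.00). *Csf1r* had r = 0.880 (permutation p = 0.00144, adjusted 0.726) and rho = 0.782 (p = 0.0110, adjusted 1.00). *Selplg* was the only gene below 0 (r = -0.153).

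These relations leaned on WT 2 and WT 4, the libraries farthest from the median of *Cx3cr1*. Without both, 12 of the 35 genes had an r above 0.5 and the median was 0.321, against -0.015 over all genes. The share of all genes above 0.5 in the remaining libraries was not taken, and with fewer libraries a large r arises more readily. *P2ry12* then had r = 0.672, *Csf1r* 0.624 and *Itgam*, from 0.858, 0.837. *Cd53* went from 0.789 to -0.168 and *Ptprc* from 0.673 to -0.079, so that their relation to *Cx3cr1* rested on those libraries. *Sall1* had r = 0.320 with all libraries and 0.189 without them.

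**Figure D4:**
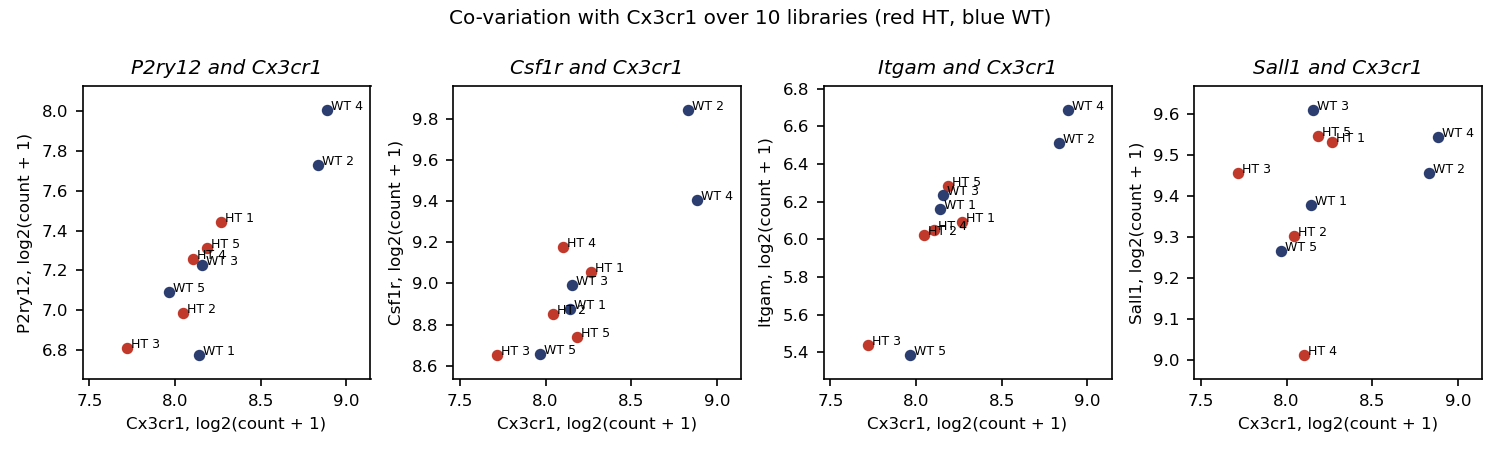
Log2(count + 1) of *P2ry12*, *Csf1r*, *Itgam* and *Sall1* (y axes) against that of *Cx3cr1* (x axes) in the 5 HT (red) and 5 WT (blue) libraries, each point labelled with its library. WT 2 and WT 4 lie at the far right, and Pearson r is 0.904, 0.880, 0.858 and 0.320 in the order named.

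Each library was then described relative to its own median deviation over the 36 genes, a step chosen after the values were seen. The SD over libraries went from 0.323 to 0.090 for *Tyrobp*, from 0.316 to 0.084 for *C1qc*, from 0.367 to 0.130 for *Ctss* and from 0.290 to 0.118 for *Fcrls*. It went up for *Sall1* (0.179 to 0.317), *Ikzf1* (0.250 to 0.335) and *Siglech* (0.296 to 0.336). On this relative scale the HT mean was lower for 20 genes and higher for 16, which the centring itself brings about. The difference of HT from WT was -0.18 for *Cx3cr1*, -0.25 for *Cd68* and -0.0016 for *C1qa*, and 0.76 for *Selplg*, 0.39 for *Spi1*, 0.28 for *Ikzf1*, 0.24 for *P2ry6* and 0.24 for *Mrc1*. *Lilrb4a* remained the only gene without overlap, with -1.82 to 0.07 in HT and 0.14 to 1.73 in WT. These are the same values recentred and no separate support, and the gene passed the minimum mean only through its WT libraries.

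The promoters of genes that moved together are shown because PU.1, the product of *Spi1*, is known to bind purine-rich words around GAGGAA in myeloid genes. RefSeq promoter windows (GRCm38.p6, 250 bases before to 50 after a start site) were matched by symbol for 26 of the 36 genes. The word GAGGAA on either strand was present in 16 of the 26 (61.5%), against 31.3% of 27025 genes with a window. The longer word GAGGAAGT, which contains it, was present in 4 of 26 (15.4%, against 3.69%). For other words, TTGCNNAA (C/EBP) was found in 6 of 26 (23.1%, against 12.2%), TGTGGTT (RUNX) in 3 (11.5%, against 6.09%), TGANTCA (AP-1) in 2 (7.69%, against 8.97%) and TATAAA in 6 (23.1%, against 15.7%), each on either strand. These are matches of letters and not shown to be bound sites.

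For genes with a mean r above 0.5 with the other 35, the word nearest the start site that has 20 bases of the upstream window on either side is given below, where that stretch lies outside the annotated gene. Sequences run 5′ to 3′ along the strand of the gene, and capitals mark GAGGAA or its reverse complement TTCCTC.
*C1qb*, chr4:136886205-136886250, minus strand, capitals from base 30 before the start site: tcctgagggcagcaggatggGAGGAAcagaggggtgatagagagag
*C1qc*, chr4:136893082-136893127, minus strand, capitals from base 193 before the start site: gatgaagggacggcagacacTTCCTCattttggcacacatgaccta
*Cd53*, chr3:106790163-106790208, minus strand, capitals from base 39 before the start site: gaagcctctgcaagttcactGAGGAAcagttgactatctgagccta
*Ctss*, chr3:95526602-95526647, plus strand, capitals from base 164 before the start site: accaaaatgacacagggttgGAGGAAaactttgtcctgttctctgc
*Itgam*, chr7:128062536-128062581, plus strand, capitals from base 84 before the start site: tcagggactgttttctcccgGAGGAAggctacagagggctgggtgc
In the 3 stretches that carry GAGGAA closest to its start site (*C1qb*, *Cd53* and *Itgam*) the word lies within 84 bases of the start, while *C1qc* and *Ctss* carry it farther out. The *C1qc* word is part of the reverse complement of GAGGAAGT, which in *Cd53* and *Ctss* lies at or after the start site and is not shown.

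Genes that act on the 36 were counted from lists written from general knowledge. Ligands of microglial receptors were lower in HT in 4 of 11 cases, with a median log2 fold change of 0.03 and none at an unadjusted limma p under 0.05. *Cx3cl1*, which encodes fractalkine, had 3629 ± 218 normalised read counts in HT and 3454 ± 161 in WT (mean ± SD, n = 5 each). *Il34*, the neuronal ligand of CSF1R, had 138 ± 11.9 and 123 ± 29.6. Partners of the complement system were lower in 5 of 10 cases (median -0.09), and in 8 without HT 4 (median -0.15). Of these *Cd93* had 984 ± 110 in HT and 1122 ± 66.7 in WT, or -0.19 on the log2 scale (limma p 0.0288, adjusted 1.00), and *C3ar1*, the receptor for C3a, had a log2 fold change of -0.44 ± 0.24 (SE).

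A wider list of 41 other microglia-enriched genes was lower in HT in 30 cases (median -0.10), with 4 at an unadjusted limma p under 0.05, of which 2 were lower and 2 higher. Over all genes tested the same shares were 53.6% lower and 3.41% called. Without HT 4 the number lower was again 30 (median -0.13). Log2 fold changes on this list ran from -0.90 to 0.46. Of the 4 genes, only the 2 with the smallest p are named here, and both were lower, while 2 went the other way. *Entpd1* (CD39), which breaks down extracellular ATP, had 190 ± 35.1 in HT against 287 ± 84.3 in WT (mean ± SD, n = 5 each), or -0.56 on the log2 scale (limma p 0.0102, adjusted 1.00). *Havcr2* (TIM-3) had 8.48 ± 3.10 and 16.4 ± 4.63, or -0.90 on the log2 scale (limma p 0.0131, adjusted 1.00), and passed the minimum of 10 only through WT. Genes of the phagocytic, lipid-handling microglia found in axon tracts after birth were lower in 12 of 15 cases (median -0.07), and in 13 without HT 4 (median -0.15). *Gpnmb*, a lysosomal glycoprotein of such cells, had 24.4, 23.9, 11.3, 21.7 and 14.4 normalised read counts in HT and 44.3, 47.7, 28.3, 159 and 28.4 in WT.

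The *Gpnmb* groups did not overlap, as in 0.629% of all genes (0.347% lower in HT), and WT 4 stood far above the rest. The log2 fold change was -1.36 ± 0.42 (SE, n = 5 each), the limma p 0.00656 (adjusted 1.00) and the exact permutation p 0.00794. *Spp1* (osteopontin) had 269 ± 54.0 in HT against 513 ± 258 in WT (mean ± SD, n = 5 each), with overlap, or -0.80 on the log2 scale (limma p 0.0217, adjusted 1.00). Of 14 other border macrophage genes 10 were tested. Of these, 7 of 10 had a higher HT mean (median 0.08), and 6 of 10 without HT 4 (median 0.06). The share lower in HT was 30%, against 53.6% of all genes. The count includes genes near the minimum of 10, with means of 11.1 for *Mgl2*, 12.4 for *Clec10a* and 12.6 for *Folr2*. The smallest p were those of *Mgl2* (0.80, limma p 0.0415) and *Cbr2* (0.75, and 0.59 without HT 4, limma p 0.0496), both with a limma adjusted p of 1.00. *Mgl2* had 14.4 counts in HT and 7.77 in WT and passed the minimum of 10 only through HT. Genes of antigen presentation and interferon response were lower in 10 of 14 cases (median -0.08), with none at an unadjusted limma p under 0.05 (*Bst2* -0.20 and *H2-K1* -0.17 had the smallest p). The lists hold marker genes of these cells that other brain cells also express, *Spp1* and *Gpnmb* included.

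Genes of other cell types differed between libraries as well. All 6 choroid plexus genes were lower in HT (median -0.31). Their summed counts were 6823 to 9737 in HT and 10330 to 14010 in WT, without overlap, and were mostly those of the transthyretin gene *Ttr*. That gene alone had 6181 to 9013 in HT and 9509 to 13000 in WT, without overlap, as in 0.629% of all genes (0.347% lower in HT). The mean score of the 6 genes did overlap, with WT 1 (-0.14) below HT 3 (-0.12) and HT 4 (-0.09). The smallest p of that list was that of *Ttr*, with -0.46 on the log2 scale (limma p 0.00146, adjusted 1.00), followed by *Clic6* (-0.52, limma p 0.00429, adjusted 1.00). All 6 erythroid genes tested had a higher HT mean (median 0.48), and their summed counts ran from 5957 to 13720 in HT and from 4523 to 13870 in WT, with *Slc4a1* at 1.20 and *Hbb-bt* at 0.57. Without HT 4 the medians were -0.34 for choroid plexus genes, all 6 lower, and 0.42 for erythroid genes, all 6 higher. Genes of the meninges and fibroblasts were lower in 6 of 10 cases (median -0.10), with sums of 20440 to 35220 in HT and 22050 to 47430 in WT, with *Lum* at -0.47 and *Col3a1* at -0.30, and all 10 were lower without HT 4 (median -0.17).

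The same count was 9 of 12 for endothelial and mural genes (median -0.07), 5 of 10 for astrocyte genes (-0.0090), 2 of 10 for oligodendrocyte lineage genes (0.08) and 4 of 10 for neuron genes (0.03). Without HT 4 it was 9 of 12 (-0.13), 7 of 10 (-0.03), 5 of 10 (0.02) and 1 of 10 (0.06), against 50.4% of all genes. The smallest p of these lists were those of *Cdh5* (-0.12) and *Flt1* (0.12), *Sox9* (-0.13) and *Aldoc* (0.14), *Mbp* (0.37) and *Mag* (0.41), and *Slc17a6* (0.15) and *Gad2* (0.11). Of these *Slc17a6* alone did not overlap between groups (limma p 0.00440, adjusted 1.00), as in 0.629% of all genes. Of 16 genes of blood leukocytes 1 was tested, *S100a9*, with 14.5 ± 11.4 in HT against 7.27 ± 2.26 in WT (mean ± SD, n = 5 each). The HT mean rested on HT 3 (34.6, with the other HT libraries at 7.57 to 12.4), the log2 difference went from 0.72 to 0.36 without it, and the gene passed the minimum of 10 only through HT. Over the 10 libraries the median of the mean r with the 36 genes was 0.410 for complement partners, 0.393 for axon-tract microglia genes, 0.319 for the other microglia-enriched genes and 0.221 for the other border macrophage genes. It was 0.464 for astrocyte, 0.391 for meningeal, 0.360 for endothelial, 0.231 for choroid plexus, -0.229 for neuron and -0.337 for erythroid genes, against -0.011 over all genes. The part of these cell types and of HT 4 in the differences of the 36 genes was not tested.

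**Figure D5:**
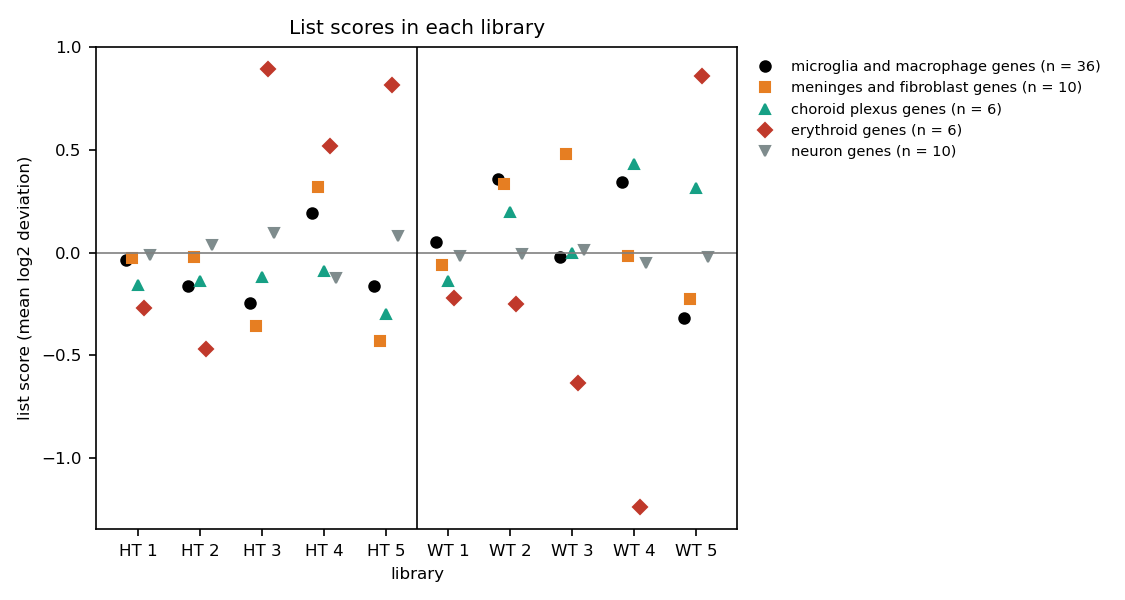
Score of 5 gene lists (y axis, mean log2 deviation of the genes of a list from their means) in each of the 10 libraries (x axis, HT left and WT right of the line). The 36 genes (black) are highest in WT 2 and WT 4 and lowest in WT 5, erythroid genes (red) lie lowest in WT 4 (-1.24) and highest in HT 3, WT 5 and HT 5, and choroid plexus genes (green) lie below 0 in all HT libraries and in WT 1 and WT 3, beside meningeal genes (orange) and neuron genes (grey).

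Outside the 36, the genes most like them by mean r were *Pdpn* (0.635), *Drc3* (0.628), *Arsi* (0.627), *Tbx18* (0.626) and *Hic1* (0.623). Podoplanin and the factors *Tbx18* and *Hic1* are made by meningeal, mural and other mesenchymal cells. The least like were *Tmem196* (-0.611), *Kat2a* (-0.601) and *Med24* (-0.599). With the genotype means taken out the mean r of the closest 5 lay between 0.621 and 0.634.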

How the data were processed

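Poly-A mRNA of 10 whole brains was made into libraries with an Illumina TruSeq mRNA kit and read as paired ends. Per the study's methods, the authors quantified reads with Salmon 1.1.0 on GRCm38 with GC bias correction, imported gene estimates with tximport, and divided them by DESeq2 1.30.1 size factors. The deposited signal values are these normalised read counts. They were not whole, and between 16.6% and 48.3% of small values per library lay within 0.05 of a whole read, so count tests were not run. The annotation release, the authors' filter on low genes and the strand setting of the quantification are not given in the sources used here.

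Values were analysed as log2(value + 1), which understates changes of low genes. Genes with a mean of at least 10 were tested (17020, with 1424 left out) in R 4.3.3 with limma 3.58.1 (trend, robust, two-sided, no covariate), with Benjamini-Hochberg adjustment over all genes and a threshold of 0.05. Exact two-sided permutation tests ran over 252 assignments of 10 libraries to 5 and 5. Symbols, positions and lengths come from GENCODE M21, where 18431 of 18444 identifiers matched. Length is that of the longest coding transcript, and shared words are 31-base words of transcripts found in another gene. Promoter windows come from RefSeq. The workflow was tested on simulated data that gave every gene the same typical spread. That test does not show how well changes are found in genes that vary more, as the genes described here do.

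The 36 genes and the other lists were chosen with earlier results of these data known. Full statistics are given for the 5 genes with the smallest limma p, the 3 highest per kilobase, the 3 with the lowest mean count and those without overlap. Of other lists, counts and the genes with the smallest p are given, and *Csf1r*, *P2ry12*, *Ctss*, *Mrc1*, *C1qa* and *Aif1* were written out after their values were seen, as were the words searched in promoters. Groups and replicate numbers come from the sample titles. Same-numbered HT and WT libraries were checked for pairing by the correlation of their deviations from the group means, which ranged from -0.104 to 0.093. It was negative for number 4 only, and for the other numbers it was the highest that the HT library had with any WT library. Pairing was thus neither shown nor excluded, and the main fit took no block. Nothing states that mice came from different litters, so p values measure the spread between these mice. Alternatives covered the pseudocount, the filter, the scaling, a length and GC trend, sample weights, the replicate block and each library left out. Other lists without HT 4, and *S100a9* without HT 3, were added after seeing the data, as differences of group means with no test.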

Additional observations from a re-analysis of the deposited data

Results flagged for a closer look

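Within each genotype, the highest and lowest library of each of the 36 genes was compared with its nearest neighbour, as the gap divided by the range of the group, and 4 of 72 groups passed the critical ratio of 0.71 for 5 libraries. Chance flags about 1 in 20 groups, or 3.6 of 72. In all 4 the library was HT 4, the highest of its group. For *C1qa* the ratio was 0.760 (296 normalised read counts, next highest 165), for *Lgmn* 0.936 (2358, next 1733), for *Cd53* 0.819 (56.2, next 42.2) and for *Lyz2* 0.923 (124, next 67.4). HT 4 was also the library farthest from the others over all genes, and the part of this in the values was not tested.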

How the results depend on the processing

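None of the 36 genes passed the adjusted threshold under any of 20 alternatives, and the median log2 fold change of the 36 stayed below 0 in all of them, from -0.26 (sample weights, and without WT 5) to -0.09 (without HT 3). The number lower in HT was 24 to 32 over the libraries left out, and 11 of the 13 genes left at a mean of at least 100. Over all genes, 0 passed with all libraries, and 0 to 2 with 1 library left out (2 without HT 4), 2 with sample weights, 1 with the length and GC trend removed and 2 with that trend removed and without HT 4. With the trend removed the median of the 36 was -0.17. *Arid1b* passed in those 4 fits (log2 fold change -0.57, -0.60, -0.67 and -0.62).

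It is not known whether the replicate numbers pair mice. With the number as a block, 0 genes passed the adjusted threshold. An unadjusted limma p under 0.05 was found for 558 genes against 580 without the block, and the median of the 36 was -0.163 with 30 lower. Of the 36, the number at an unadjusted limma p under 0.05 went from 1 to 3 (*Lilrb4a*, *Gpr34* and *Cd68*). In 4 of 5 numbers an HT library correlated best with the WT library of its own number.

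The sign held in every fit for 25 of the 36 genes, 22 of them lower in HT, and turned in 35 of 697 single-gene fits. With sample weights *P2ry6* was at -0.0415 and *Mrc1* at -0.0607. With the trend removed and without HT 4, *Siglech* was at 0.0002, *Fcgr3* at 0.0451 and *Mrc1* at -0.07. Over the libraries left out, log2 fold changes ran from -0.14 to 0.21 for *P2ry6*, -0.23 to 0.0205 for *Tmem119*, -0.17 to 0.0607 for *Siglech*, -0.12 to 0.0810 for *Fcgr3*, -0.0920 to 0.0430 for *Lgmn*, -0.15 to 0.0198 for *Laptm5*, -0.19 to 0.0532 for *Ptprc*, -0.0882 to 0.28 for *Adgre1*, -0.13 to 0.0084 for *Sall1*, -0.0490 to 0.20 for *Mrc1* and -0.17 to 0.0840 for *Pf4*. The cause was not tested. Pairs with an r above 0.5 numbered 240 to 308 and genes with such an r with *Cx3cr1* 17 to 24. They are given here without the shares over all pairs or genes in those settings. These counts alone therefore do not set the 36 genes apart from other genes. For genes near 10 normalised counts the depth limits what can be seen.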
